A study of Homo sapiens with 8 samples.

Results

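Mitochondrial complex I, the NADH:ubiquinone oxidoreductase that opens the respiratory chain, was examined through its nuclear genes, taken as every protein-coding gene whose symbol starts with NDUFA, NDUFB, NDUFC, NDUFS, NDUFV or NDUFAF. The rule gave 46 genes, of which 45 had a probe among the 19043 genes tested: 37 subunits and 8 assembly factors. The remaining gene, the readthrough NDUFC2-KCTD14, had no probe matched to it. NDUFA4 is not among them because its current name is COXFA4, and it was counted with complex IV. The signal of all 45 was well above background on all 8 arrays, so none was lost to a filter.

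The cells were A549, an established line from a human lung carcinoma, and every array held RNA pooled from 3 cultures of a single condition. In the EEDS series, cells received the vehicle or 1.25, 5 or 20 μg/mL of EEDS, an ethanol extract of Descurainia sophia seeds. In the helveticoside series, they received the vehicle or 3.75, 15 or 60 nM of helveticoside, a cardiac glycoside described by the study as an active component of that extract. The labels give 48 h of incubation with the drugs, whereas the study's methods give a shorter exposure for the arrays. The treated doses of a series lay a constant ratio apart, and each dose had 1 array, so a ratio of 1 agent at a single dose, taken by itself, has no error and no test. A pool also cannot show the spread between cultures. Agent and series cannot be told apart, since each agent had arrays and a vehicle control of its own. Of 9 epithelial and A549 markers, all 9 were well above background on both vehicle arrays, and 6 of 9 markers of blood, endothelial and stromal cells were on neither. PTPRC, CDH5 and COL1A1 were well above background on both. The median signal of the dark corner spots was 34 to 36 on the EEDS arrays and 118 to 141 on the helveticoside arrays, and its part in the differences between the agents was not tested.

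Complex I is an L-shaped assembly. A matrix arm takes electrons from NADH through a flavin and a chain of iron-sulfur clusters to ubiquinone, and a membrane arm pumps protons. The catalytic core subunits are shared with bacteria, the accessory subunits surround them, and the assembly factors build the enzyme in modules and then leave it. The core subunits of the membrane arm are encoded by mitochondrial DNA, and the core subunits examined here are those of the matrix arm.

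At the top doses, complex I genes moved in both directions around a median close to 0. The median log2 ratio of the 37 subunits was -0.01 at 20 μg/mL EEDS and 0.00 at 60 nM helveticoside, beside 0.02 and 0.00 for all genes. When the 75th percentile of every array served as the scale in place of quantiles, the subunit medians became 0.175 and 0.31, so the family's direction depends on the scaling. That scaling put the median of all genes at -0.36 and -0.18, and that of the 11491 genes with bright signal, well above background on all arrays, at -0.04 and 0.06. The ratios of the 45 members ranged from -2.44 to 0.79 for EEDS, with an SD over genes of 0.62, and from -1.83 to 0.68 for helveticoside, with an SD of 0.52. Over these 11491 bright genes the SDs were 1.09 and 0.96.

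Against the vehicle array of their own series, changes past 2-fold among the members were all falls. Such falls were few, and the count past 2-fold changed with the vehicle array used, so no difference from all genes is drawn from it. At 20 μg/mL EEDS, 5 members were more than 2-fold lower than the vehicle array (NDUFB10, NDUFB9, NDUFV2 and NDUFAF3 among them) and 0 were more than 2-fold higher, beside 14.5% and 13.3% of all genes. At 60 nM helveticoside, 3 were more than 2-fold lower (NDUFB10, NDUFAF6 and NDUFAF3) and 0 were more than 2-fold higher, beside 12.8% and 10.8%. At 1.5-fold, 8 members were lower and 4 higher with EEDS, where all genes gave 23.2% and 23.1%. With helveticoside, 7 were lower and 2 higher, where all genes gave 20.3% and 20.5%. For the bright genes, the shares past 2-fold were 16.2% lower and 14.3% higher with EEDS and 13.3% lower and 10.9% higher with helveticoside, and those past 1.5-fold were 27%, 25.7%, 23% and 21.9% in the same order.

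**Figure D1:**
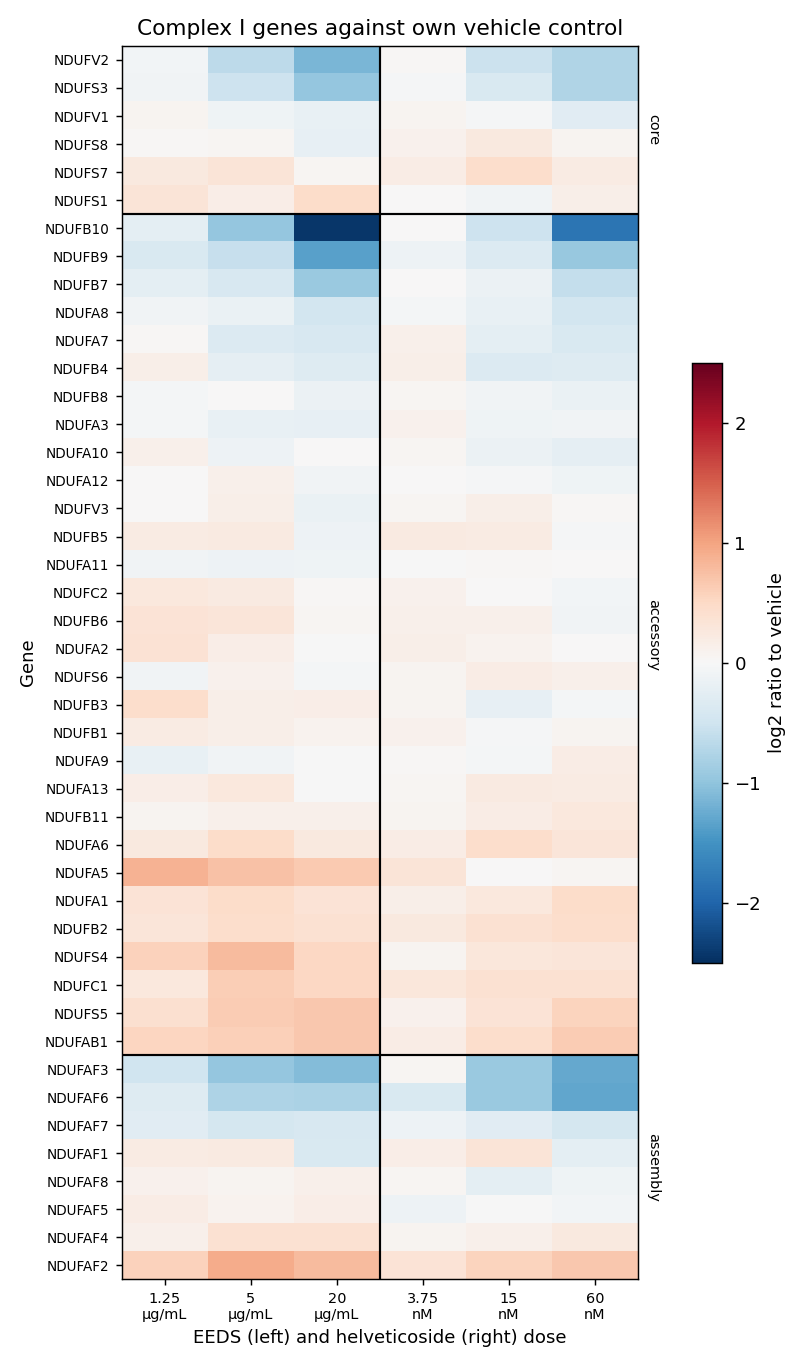
Log2 ratio of 44 complex I genes (rows) to the vehicle array of its own series at the 3 doses of EEDS and of helveticoside (columns), with core subunits, accessory subunits and assembly factors apart and ordered by the mean of both top doses. Blue marks lower and red higher signal. NDUFB10 holds the lowest value, -2.44 at 20 μg/mL EEDS, and most other rows stay pale.

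To ask which members followed dose, a line over the 4 dose steps of each series was fitted to all genes with limma, and the mean of both slopes was tested. The step from the vehicle to the lowest dose was entered as equal to the others, although it has no ratio. A slope is a log2 difference per dose step, given with its standard error (SE). By the mean slope, 10 of 45 members fell and 7 rose at an adjusted p under 0.05, where 15.6% of all genes fell and 14.5% rose. Of the bright genes, 20.9% fell and 20.2% rose. The members' shares, 22.2% falling and 15.6% rising, were near these backgrounds. The members that fell were NDUFB10, NDUFAF3, NDUFAF6, NDUFB9, NDUFV2, NDUFS3, NDUFB7, NDUFA7, NDUFA8 and NDUFAF7. Those that rose were NDUFAF2, NDUFS5, NDUFAB1, NDUFC1, NDUFB2, NDUFA1 and NDUFAF4. NDUFB11, an accessory subunit of the membrane arm, missed the threshold with a slope of 0.07 ± 0.0201 (SE) and a limma adjusted p of 0.0502. Its values moved up at each of the 6 steps.

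For EEDS alone, 6 members fell (NDUFB10, NDUFB9, NDUFV2, NDUFS3, NDUFB7 and NDUFAF6), beside 7.85% of all genes, and 1 rose (NDUFS5), beside 7.26%. For helveticoside alone, 2 fell (NDUFAF3 and NDUFAF6), beside 5.81% of all genes, and 1 rose (NDUFS5), beside 5.49%. The calls rest on few arrays. Without the 60 nM helveticoside array, 1 of the 17 calls on the mean slope remained (NDUFAF6), and 6.97% of all genes were called. Without the EEDS vehicle, 20 μg/mL EEDS, helveticoside vehicle, 3.75 nM or 15 nM array, 8, 11, 10, 11 and 10 members were called, beside 16.7%, 15.2%, 21.9%, 24.3% and 22.9% of all genes. With the 75th percentile as the scale, 16 members were called, beside 32.7% of all genes, and only 12 of them were among the 17. The calls of NDUFA7, NDUFA8, NDUFB7, NDUFAF4 and NDUFAF7 were lost. With dose entered linearly, 6 were called, all falling (NDUFB10, NDUFB9, NDUFB7, NDUFA8, NDUFV2 and NDUFS3), beside 24.3% of all genes. With the dose step as a factor and the series as a term, the top step was compared with the vehicle over both agents, and 22 members were called, among them all 17, beside 38.3% of all genes. The EEDS count became 0 without the EEDS vehicle or 20 μg/mL array, where 0 of all 19043 genes were called, and 0 without the 15 nM helveticoside array, beside 4.68% of all genes. It was 2 without 5 μg/mL (11.4% of all genes) and 4 without 1.25 μg/mL, 3.75 nM or 60 nM (8.94%, 11% and 9.65%). The helveticoside count became 0 without the 15 nM or 60 nM array, where 0 of all genes were called, and 0 without the helveticoside vehicle array, beside 2.46% of all genes. It was 1 without 1.25 or 5 μg/mL EEDS (3.54% and 3.88%). Of its 3 calls, 1 was kept with the 75th percentile as the scale (NDUFAF6), 2 with normexp or the scanned signal (NDUFAF3 and NDUFAF6) and 0 with dose entered linearly.

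**Figure D2:**
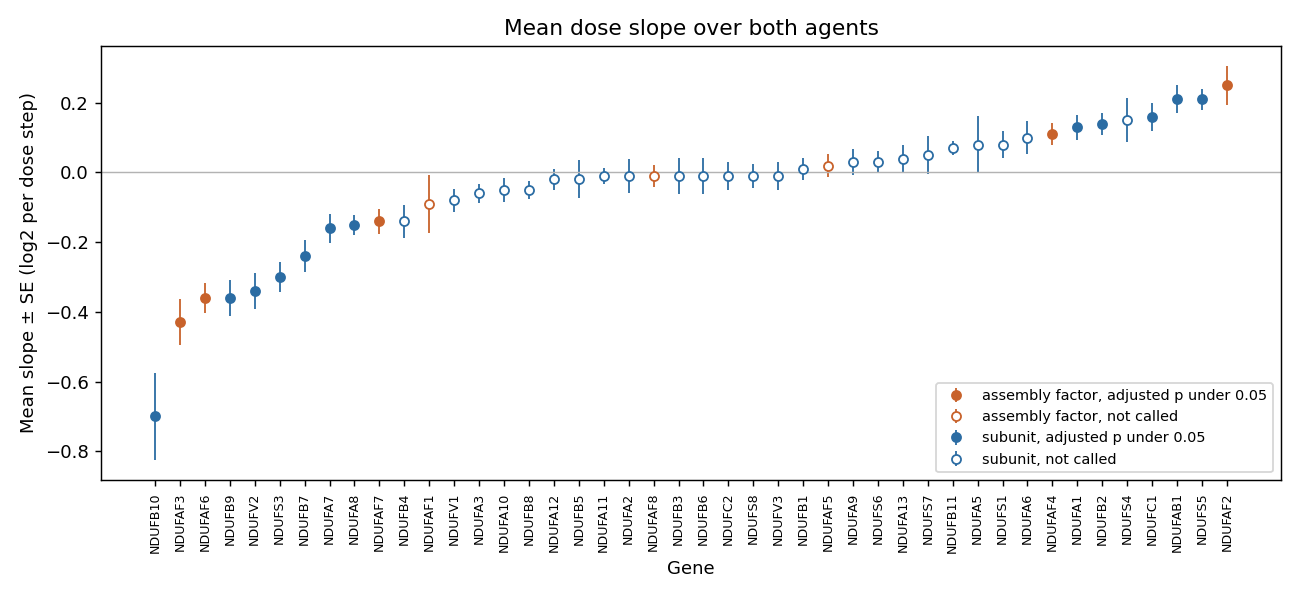
Mean of the EEDS and helveticoside dose slopes (vertical axis, log2 per dose step, with the limma SE as bars) for 44 complex I genes in rank order, with subunits in blue and assembly factors in orange. Filled points have an adjusted p under 0.05. The slopes run from -0.70 for NDUFB10 to 0.25 for NDUFAF2.

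NDUFB10, an accessory subunit of the membrane arm, had the steepest slope of the family. Its log2 normalized intensity was 14.84 on the EEDS vehicle array and 14.60, 13.88 and 12.41 at 1.25, 5 and 20 μg/mL. It was 14.91 on the helveticoside vehicle array and 14.90, 14.40 and 13.07 at 3.75, 15 and 60 nM. The level was the same to 0.01 on the helveticoside vehicle and 3.75 nM arrays and went down at the other 5 steps, most of all at the last of each series, to 5.41-fold below the vehicle with EEDS and 3.57-fold below with helveticoside. The mean slope was -0.70 ± 0.125 (SE; limma adjusted p = 0.0127). The call was lost without the 20 μg/mL EEDS or the 60 nM helveticoside array and kept without each of the other 6.

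NDUFB9 and NDUFB7, also accessory subunits of the membrane arm, followed the same course with smaller changes. NDUFB9 stood at 16.18, 15.79, 15.61 and 14.83 from the vehicle to the top dose of EEDS and at 16.01, 15.90, 15.67 and 15.08 for helveticoside. Both top-dose arrays lay below the other 6 arrays. The fall was 2.55-fold with EEDS and 1.91-fold with helveticoside, and the mean slope was -0.36 ± 0.0522 (SE; limma adjusted p = 0.0073). NDUFB7 read 13.16, 12.92, 12.76 and 12.23 in the EEDS series and 13.01, 13.02, 12.87 and 12.41 in the helveticoside series. Its 3.75 nM value was within 0.01 of the control, and its top-dose arrays were again the lowest of the 8. Its mean slope was -0.24 ± 0.046 (SE; limma adjusted p = 0.015), lost without the EEDS vehicle, 20 μg/mL or 60 nM array.

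The other 2 accessory subunits that fell changed less. NDUFA8, of the membrane arm, had a mean slope of -0.15 ± 0.0288 (SE; limma adjusted p = 0.0158) and a log2 ratio of -0.46 at both top doses. It went down at each of the 6 steps. NDUFA7, of the matrix arm, had a mean slope of -0.16 ± 0.0414 (SE; limma adjusted p = 0.04) and ratios of -0.41 and -0.39, and its call was lost without any of 6 of the 8 arrays.

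Of the 7 core subunits, 2 fell and 0 rose by the mean slope. NDUFV2 carries an iron-sulfur cluster beside the flavin site. Its values were 14.62, 14.56, 13.97 and 13.47 across the EEDS series and 14.40, 14.42, 13.85 and 13.63 across the helveticoside series. The lowest doses differed from their controls by -0.06 and 0.02, and the change came between the lowest and the top dose. The mean slope was -0.34 ± 0.0521 (SE; limma adjusted p = 0.00834). NDUFS3 helps form the part of the matrix arm that leads to the ubiquinone site. It read 13.53, 13.45, 13.01 and 12.57 with EEDS and 13.33, 13.29, 12.95 and 12.58 with helveticoside. Both series went down at every step, with a mean slope of -0.30 ± 0.0435 (SE; limma adjusted p = 0.00764).

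NDUFS1, NDUFV1, NDUFS7 and NDUFS8 were not called. Their top-dose log2 ratios for EEDS and helveticoside were 0.45 and 0.14 for NDUFS1, which carries iron-sulfur clusters of the matrix arm. They were -0.18 and -0.28 for NDUFV1, the subunit that binds the flavin. For NDUFS7 and NDUFS8, which carry the last clusters before ubiquinone, they were 0.04 and 0.21, and -0.20 and 0.06.

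The accessory subunits that rose did so by less than 2-fold. NDUFS5, of the membrane arm, was the only member called as rising for each agent alone. It stood at 15.75, 16.15, 16.38 and 16.43 across the EEDS series and at 15.89, 16, 16.23 and 16.45 across the helveticoside series. It went up at every step in both, to 1.61-fold and 1.47-fold above the vehicle, with a mean slope of 0.21 ± 0.0302 (SE; limma adjusted p = 0.00734). Its probe lay on 10 spots of each array, and the SD of log2 signal between these spots was 0.035 to 0.059, which covers the printing and reading of an array and not the cultures. NDUFAB1, the mitochondrial acyl carrier protein, which sits in both arms, read 14.08, 14.62, 14.67 and 14.75 with EEDS and 14.17, 14.37, 14.62 and 14.81 with helveticoside. Both vehicle arrays were lower than all treated arrays, and the mean slope was 0.21 ± 0.04 (SE; limma adjusted p = 0.0152).

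NDUFC1, NDUFB2 and NDUFA1, small subunits of the membrane arm, had mean slopes of 0.16, 0.14 and 0.13, with limma adjusted p of 0.0336, 0.0264 and 0.0437. Their top-dose log2 ratios ranged from 0.34 to 0.52 with EEDS and from 0.39 to 0.45 with helveticoside. The 2 vehicle arrays differed by 0.37 for NDUFA1, which was more than its ratio at 20 μg/mL EEDS, 0.34. For the other 16 called members, the change at both top doses exceeded the difference between the vehicle arrays, by little for NDUFAF2 (0.68 with helveticoside against 0.67). This is a description and no check of the calls, which came from the same arrays. NDUFS4, an accessory subunit of the matrix arm, had ratios of 0.52 and 0.31 and was not called (mean slope 0.15 ± 0.0624 SE; limma adjusted p = 0.143).

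**Figure D3:**
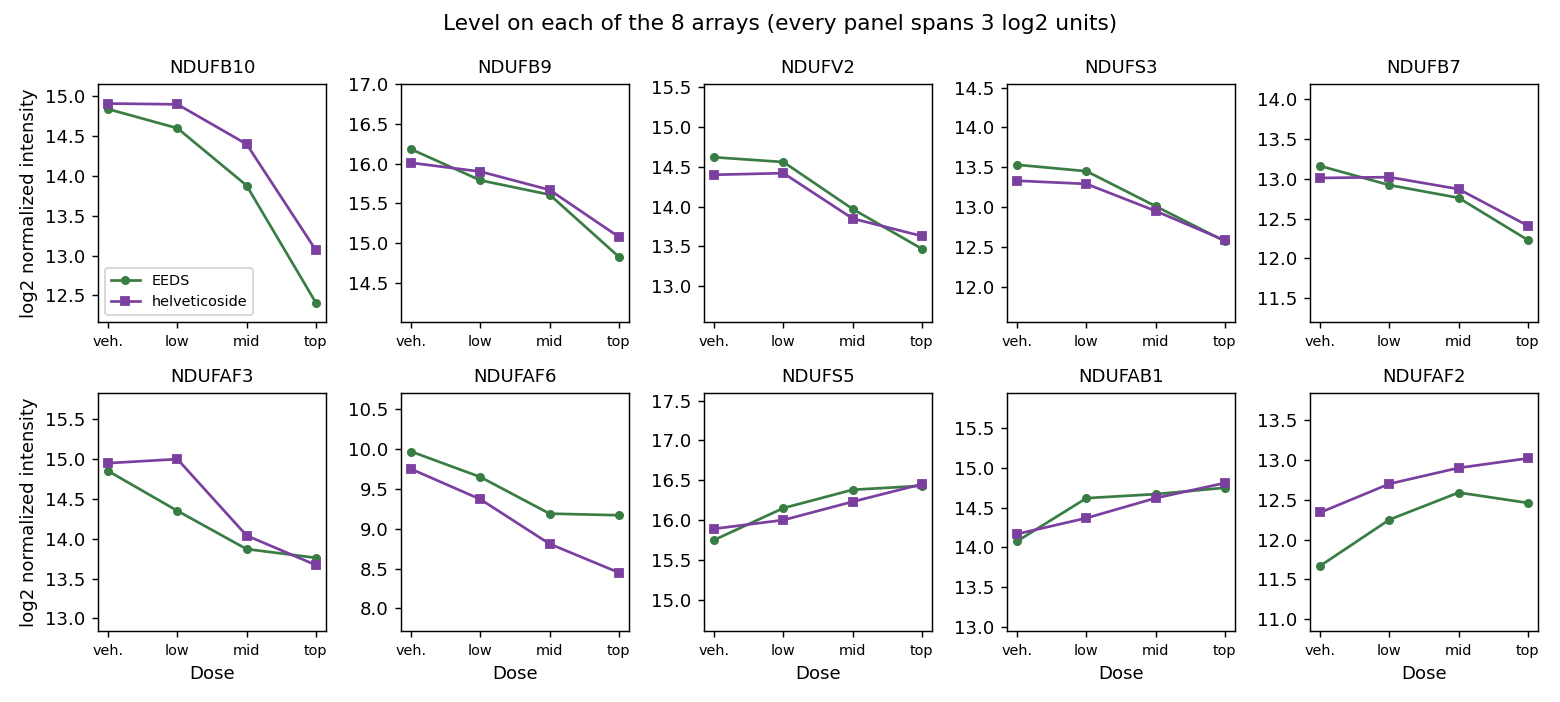
Log2 normalized intensity on each of the 8 arrays (vertical axis) against the dose from vehicle to top (horizontal axis) for 10 called complex I genes, EEDS in green and helveticoside in purple. Every panel spans 3 log2 units, and levels cannot be compared between panels because each gene has a probe of its own. NDUFB10 drops most between the middle and the top dose, whereas NDUFAF3 and NDUFAF6 had most of their EEDS change by the middle dose.

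Among the 8 assembly factors, 3 fell and 2 rose by the mean slope. NDUFAF3, which acts early with NDUFAF4 on the part of the matrix arm near the membrane, read 14.85, 14.35, 13.87 and 13.76 in the EEDS series and 14.95, 15.00, 14.04 and 13.67 in the helveticoside series. The 3.75 nM array was within 0.05 of its control, and the middle-dose and top-dose arrays of both series were 0.92 to 1.28 log2 units below theirs. The top-dose fall was 2.12-fold and 2.44-fold, with a mean slope of -0.43 ± 0.0662 (SE; limma adjusted p = 0.00878). NDUFAF6, needed for the assembly of a mitochondrially encoded membrane subunit, read 9.97, 9.65, 9.19 and 9.17 with EEDS and 9.75, 9.37, 8.81 and 8.45 with helveticoside. On the probe used, it went down at each of the 6 steps, and the fall was 1.74-fold with EEDS and 2.46-fold with helveticoside. The mean slope, -0.36 ± 0.0424 (SE; limma adjusted p = 0.00438), passed without each of the 8 arrays in turn. A further probe for NDUFAF6 gave -0.70, -0.81 and -0.43 over the EEDS doses, against -0.32, -0.78 and -0.80 for the probe used. Its EEDS values thus turned up between the middle and the top dose. Over the helveticoside doses it gave -0.92, -1.15 and -1.27, against -0.38, -0.93 and -1.30.

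NDUFAF2, a relative of the subunit NDUFA12 that holds its place late in assembly, rose. Its values were 11.67, 12.25, 12.59 and 12.46 with EEDS and 12.34, 12.70, 12.90 and 13.02 with helveticoside. All treated arrays exceeded their own control, but the helveticoside vehicle array stood 0.67 above the EEDS vehicle array, the largest such difference among the members. The mean slope was 0.25 ± 0.0566 (SE; limma adjusted p = 0.026). NDUFAF7, a methyltransferase that acts on complex I during assembly, fell with a slope of -0.14 ± 0.0361 (SE; limma adjusted p = 0.034), and NDUFAF4 rose with a slope of 0.11 ± 0.0325 (SE; limma adjusted p = 0.0492). Both of these calls were lost without any 1 of the 8 arrays.

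The other 3 assembly factors were not called. NDUFAF1, which belongs to the complex that assembles the membrane arm, was higher than its controls at the lowest and middle doses (0.20, 0.23, 0.17 and 0.33) and lower at the top doses (-0.39 and -0.25). NDUFAF5, which hydroxylates NDUFS7, had top-dose ratios of 0.17 and -0.06. NDUFAF8, a partner of NDUFAF5, had ratios of 0.12 and -0.11.

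Set against each other at the top doses, the assembly factors had a slightly lower median than the subunits. The assembly factor median log2 ratio was -0.13 with EEDS and -0.18 with helveticoside, so the subunit median exceeded it by 0.12 and 0.18. The difference was 0.01 and 0.03 at the lowest doses and 0.05 and 0.13 at the middle doses. The spread of the same difference about its dose lines was 0.071 over the 8 arrays, which does not cover the small number of genes. The EEDS median of the assembly factors is the midpoint between NDUFAF1 (-0.39) and NDUFAF8 (0.12). With EEDS, 4 assembly factors were higher than the vehicle and 4 lower, beside 16 and 21 subunits. With helveticoside, 2 were higher and 6 lower, beside 19 and 18 subunits. With the authors' processed values, the top-dose differences became 0.04 and 0.086. Of the assembly factors 5 of 8 (62.5%) were called on the mean slope and of the subunits 12 of 37 (32.4%), both with calls in each direction. Over all genes 30.0% were called, and over the bright genes 41.2%. Among the assembly factor calls, those of NDUFAF4 and NDUFAF7 were lost without any single array. By arm, 3 of the 16 matrix-arm subunits (18.8%) were called, all falling, and 8 of the 20 membrane-arm subunits (40.0%), with 4 falling and 4 rising. These counts describe the groups and were not compared by a test.

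The values of both agents were then set side by side. Across the 45 members, the top-dose log2 ratios of EEDS and helveticoside were correlated, with r = 0.928 (Pearson) and rho = 0.879 (Spearman), as a description over genes that share the same arrays. The bright genes had r = 0.925. For the members, r was 0.745 at the lowest and 0.886 at the middle doses. In 32 of 45 members (71.1%) both top-dose ratios had the same sign, beside 76.5% of all genes and 86.9% of the bright genes. NDUFA5, an accessory subunit of the matrix arm, had the same sign at both top doses but ratios unlike in size. They were 0.86, 0.73 and 0.66 for EEDS and 0.32, 0.00 and 0.04 for helveticoside. Its level on the helveticoside vehicle array was 0.34 above that on the EEDS vehicle array. The dose steps of the agents were paired by rank and were not matched for their effect on cell growth. Of the 10 falling members, NDUFB10, NDUFB9, NDUFV2, NDUFS3, NDUFB7 and NDUFA7 were lower with EEDS than with helveticoside at the top dose, NDUFAF3, NDUFAF6 and NDUFAF7 were lower with helveticoside, and NDUFA8 had -0.46 with both. None of these differences between slopes passed the limma test, with 0 of 45 members called (background 0%) and 0 at an unadjusted p under 0.05, and 0 of 19043 genes called and 525 at an unadjusted p under 0.05. The 95% interval of the difference, helveticoside minus EEDS, ran from -0.37 to 0.05 for NDUFAF6, from -0.62 to 0.21 for NDUFA5 and from -0.42 to 0.83 for NDUFB10. Over the members, the median distance from the estimate to either bound was 0.2 log2 per step.

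**Figure D4:**
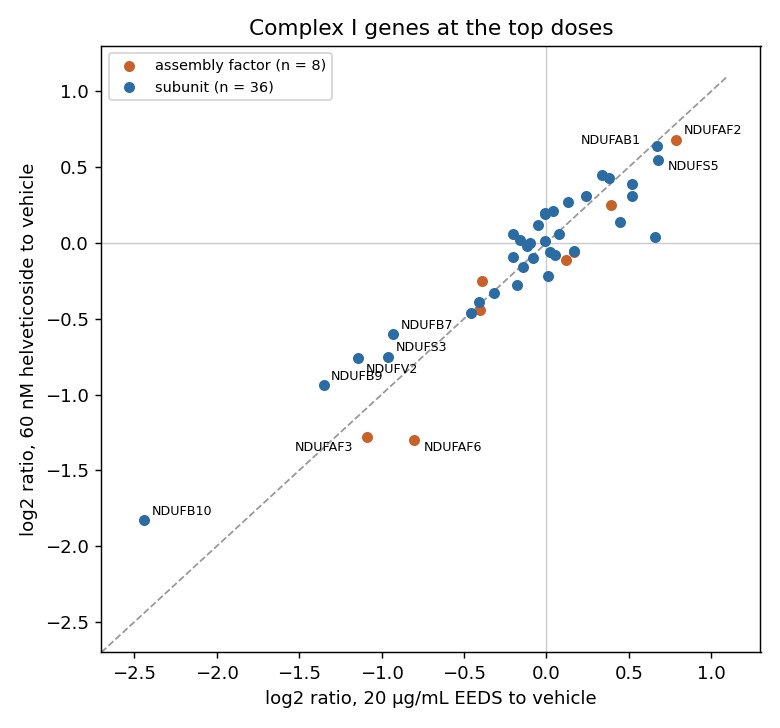
Top-dose log2 ratio of 44 complex I genes with helveticoside (vertical axis) against EEDS (horizontal axis), subunits in blue and assembly factors in orange, with the line of equal values dashed. NDUFB10 lies lowest on both axes, at -2.44 and -1.83. NDUFAF3 and NDUFAF6 lie below the line, and NDUFB9, NDUFV2, NDUFS3 and NDUFB7 above it.

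The 17 subunits not described so far had top-dose ratios from -0.32 to 0.24 with EEDS and from -0.33 to 0.31 with helveticoside. NDUFB4 was the lowest of them and NDUFA6 the highest for both agents, and none was called on the mean slope. Of the 45 members, 38 had 1 probe, and among the called members only NDUFAF6 had a further probe to set beside it. NDUFA10 and NDUFC2 had 2 probes that disagreed. For NDUFA10, the probe used gave 0.01 and -0.22 at the top doses and the other gave 0.53 and 0.41. For NDUFC2, the probe used gave 0.27 and 0.11 at the lowest doses and the other gave -0.35 and -0.35. Pseudogenes named after a member are annotated for 21 of the 45 genes, 9 of them among the 17 called, and transcripts of such copies were not told apart from those of the gene.

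The start sites of the members offered a second description. NRF1, ETS-family factors such as GABP, and YY1 are known regulators of nuclear genes for the respiratory chain. RefSeq promoter windows on GRCh38.p14, from 250 bases before to 50 bases after a start site, were at hand for 39 of the 45 members. The letters CGCATGCG (NRF1), CCGGAAG (ETS) and AAGATGGC (YY1) were searched on both strands, and no member window held an ETS and a YY1 match that shared bases. NRF1 letters were found in 6 members (15.4%), beside 2.46% of all 27305 genes with a window and 4.39% of the bright genes among them. ETS letters were in 7 members (17.9%), beside 12.2% and 22.2%, and YY1 letters in 8 (20.5%), beside 3.52% and 6.58%. In all, 19 members (48.7%) held at least 1 of the 3, beside 16.7% and 29.8%. All YY1 matches of the members began after the start site, 9 to 25 bases past the first transcribed base.

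Members that fell and members that rose both carried the ETS letters, in 2 of the 8 falling and 2 of the 6 rising members with a window. Their 250 bases before the start are shown for this reason, 5′ to 3′ on the gene's strand, with the ETS letters in capitals on whichever strand they lie. NDUFB7 and NDUFS3 fell and NDUFA1 and NDUFAF4 rose.
NDUFB7, chr19:14572067-14572316, minus strand: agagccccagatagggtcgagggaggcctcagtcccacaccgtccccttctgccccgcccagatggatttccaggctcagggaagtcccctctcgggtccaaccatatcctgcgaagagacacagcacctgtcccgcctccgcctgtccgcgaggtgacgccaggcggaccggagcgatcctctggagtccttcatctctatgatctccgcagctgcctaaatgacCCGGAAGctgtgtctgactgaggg
NDUFS3, chr11:47578824-47579073, plus strand: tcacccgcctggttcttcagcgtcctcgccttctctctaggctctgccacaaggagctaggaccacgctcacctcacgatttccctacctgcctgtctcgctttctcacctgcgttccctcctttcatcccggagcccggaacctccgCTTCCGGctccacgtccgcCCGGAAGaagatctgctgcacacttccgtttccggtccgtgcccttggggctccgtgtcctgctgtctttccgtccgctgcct
NDUFA1, chrX:119871582-119871831, plus strand: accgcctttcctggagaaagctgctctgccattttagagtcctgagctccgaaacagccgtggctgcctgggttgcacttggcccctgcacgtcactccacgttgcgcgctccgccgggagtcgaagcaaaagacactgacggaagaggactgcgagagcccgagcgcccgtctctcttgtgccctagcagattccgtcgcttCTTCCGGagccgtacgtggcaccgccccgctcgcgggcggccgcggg
NDUFAF4, chr6:96897892-96898141, minus strand: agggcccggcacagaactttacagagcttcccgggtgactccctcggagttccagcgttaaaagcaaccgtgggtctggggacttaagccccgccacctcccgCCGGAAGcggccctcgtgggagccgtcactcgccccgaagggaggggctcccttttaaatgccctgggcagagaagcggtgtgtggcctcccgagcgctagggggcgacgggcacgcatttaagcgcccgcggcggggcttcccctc
The match began 24 bases before the start in NDUFB7, 47 in NDUFA1 and 147 in NDUFAF4. NDUFS3 held 2 matches, at 83 and 102 bases, on opposite strands. Among the other called members with a window, NDUFA8 held the NRF1 letters from 3 bases before the start onwards and NDUFA7 the YY1 letters from 14 bases past the first transcribed base. No window of NDUFB10, the member with the largest fall, held any of the 3 motifs. A match is a run of letters and not a measured binding site.

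Other mitochondrial genes give the setting. Of 15 further complex I assembly genes on the array, 5 fell and 3 rose by the mean slope, and their spread was wider than that of the NDUFAF genes. TIMMDC1, which helps build the membrane arm, had a slope of -0.58 ± 0.093 (SE; limma adjusted p = 0.00979), and NUBPL, which delivers iron-sulfur clusters to complex I, one of -0.53 ± 0.0549 (SE; limma adjusted p = 0.00376). TMEM242 and TMEM126A rose, with slopes of 0.81 and 0.41 and limma adjusted p of 0.00279 and 0.00365. Both take part in building the membrane arm.

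The other respiratory complexes were counted in the same way, but the lists of complexes II and III held assembly factors beside subunits. In complex II, 0 of 8 fell and 3 rose, and in complex III 2 of 14 fell and 3 rose. Both falling genes of complex III, BCS1L and TTC19, are assembly factors, as are SDHAF1 and UQCC3 among the rising genes. In complex IV 0 of 20 fell and 7 rose, and in complex V 3 of 19 fell and 4 rose. Of the 20 complex IV genes, 15 were well above background on all 8 arrays. COX7A1, called as rising, was well above background on 0 arrays. Of the 76 mitochondrial ribosomal proteins, 30 fell and 10 rose, MRPS34 among the falling with a slope of -0.66 ± 0.125 (SE; limma adjusted p = 0.0154). These shares stand beside 15.6% falling and 14.5% rising over all genes. Among 14 regulators of mitochondrial biogenesis, 1 fell and 4 rose. TFB1M, which methylates mitochondrial ribosomal RNA, fell with a slope of -0.47 (limma adjusted p = 0.0329), and TFAM, which packs and transcribes mitochondrial DNA, rose with a slope of 0.35 (limma adjusted p = 0.0252). GABPB1, a subunit of the ETS-family factor GABP, rose with a slope of 0.62 (limma adjusted p = 0.0404). The median of both top-dose ratios, averaged per gene, was -0.02 for the complex I subunits and -0.02 for complex V. It was 0.22 and 0.19 for the lists of complexes II and III, assembly factors included, and 0.30 for complex IV. For the mitochondrial ribosomal proteins it was -0.30. The mitochondrially encoded complex I genes were not analysed here.

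**Figure D5:**
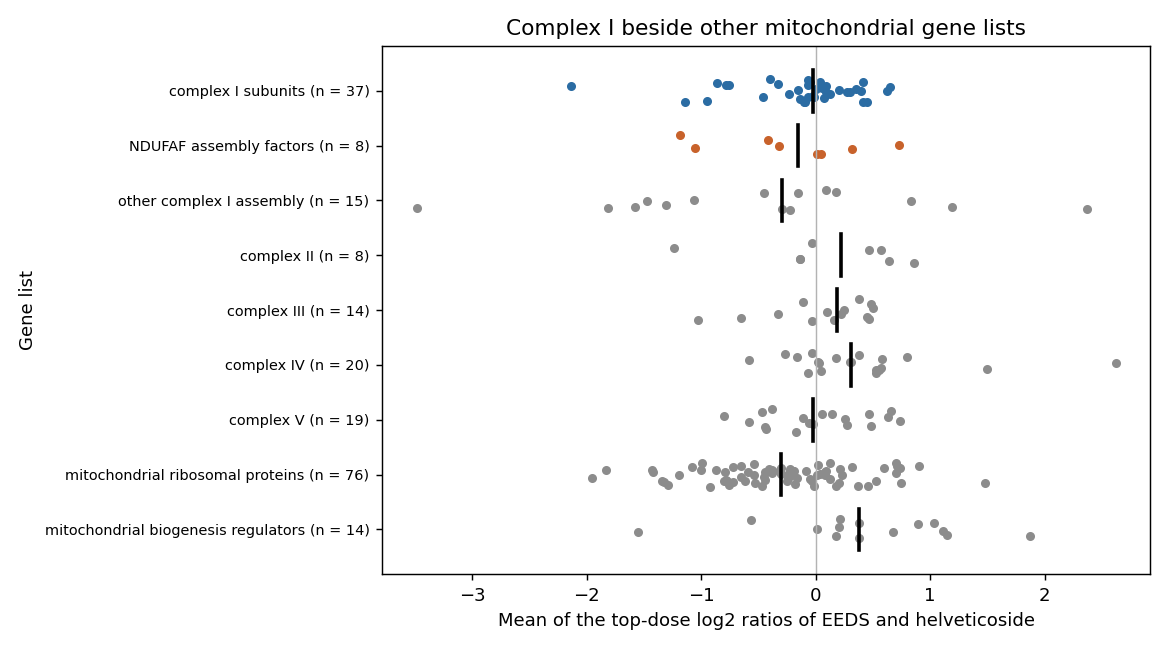
Mean of the top-dose log2 ratios of EEDS and helveticoside (horizontal axis) for each gene (points, spread vertically for legibility) of the complex I subunits, the NDUFAF assembly factors and 7 other mitochondrial lists, with black bars for the medians. The complex I subunits range from -2.14 to 0.65 around a median of -0.02. The other complex I assembly genes range from -3.48 to 2.37, the lowest being DMAC1, whose probe was well above background on 5 of the 8 arrays.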

How the data were processed

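Total RNA from A549 cells, pooled from 3 cultures per condition, was hybridized by the authors to one-colour Agilent human arrays, and samples were grouped by the agent and dose in the labels. For each of the 8 arrays the authors deposited spot intensity from the scanner software, including a processed signal after background subtraction, as well as a table of processed intensity values per probe. The labels name the dye Cy5 and the files give the signal in the columns of the green channel. The arrays held 43118 probe spots each, and 246 to 331 were left out as outliers. None was saturated. The precision is limited by the number of arrays.

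Processed signals were averaged per probe, quantile-normalized across all 8 arrays, and log2 values were taken. Accessions linked 24809 of 34127 probes to GRCh38.p14 genes, and a gene with several probes was read from its brightest. A gene was kept when its median signal reached 1.4 times the local background on at least 1 array of each series. Slopes per dose step were fitted over all 8 arrays with 1 line per series (limma 3.58.1, statmod 1.5.0 and R 4.3.3, with trend and robust estimation and 4 residual degrees of freedom), and p-values were adjusted over all 19043 genes by the Benjamini-Hochberg procedure at 0.05. The fit was also run on simulated data, with independent noise about straight lines of equal slope in both series. Such data cannot show how the fit behaves with curved responses or error shared by a whole array. p-values measure the spread of pools about a line and not the spread between cultures. Summaries used pandas 2.3.3, scipy 1.17.1 and numpy 2.4.6 under Python 3.11.15.

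The members and the gene lists were chosen with earlier results of these data known. Values of 1 member are not reported here, though it is in the counts. Apart from it, the genes named were the assembly factors and core subunits, the 5 highest and 5 lowest accessory subunits by the mean of both top-dose ratios, every member with a trend call, and at most the 2 highest and 2 lowest genes of other lists among those well above background on all 8 arrays. COX7A1, DMAC1, NDUFA5, NDUFA6, NDUFA10, NDUFB4, NDUFB11 and NDUFC2 were named after their values were seen. Alternatives covered scaling, background correction, the authors' values, probe averaging, filters, the choice of vehicle array, the shape of the dose trend, the moderation of variances and leaving out each array.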

Additional observations from a re-analysis of the deposited data

How the results depend on the processing

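No paired analysis was possible because each condition had 1 array and the labels share no replicate number that pairs them. Arrays were matched by dose step alone in the fit with the step as a factor and the series as a term, which called 22 members on the mean of both agents at the top step. The subunit median at the top dose (-0.011 for EEDS and 0.002 for helveticoside) became 0.175 and 0.31 with the 75th percentile as the scale and, for EEDS, -0.131 with the authors' values. The assembly factor median (-0.135 and -0.178) became -0.001 and -0.013 with the 75th percentile, -0.093 and -0.125 with normexp, -0.092 and -0.129 with the scanned signal, -0.171 and -0.12 with the authors' values, -0.296 and -0.142 against the other series' vehicle array, and, for EEDS, -0.216 against the mean of both vehicle arrays. Subunits minus assembly factors (0.124 and 0.18) became 0.046 and 0.088 with normexp, 0.044 and 0.091 with the scanned signal and 0.04 and 0.086 with the authors' values, 0.246 for EEDS against the other vehicle array, and 0.323 for helveticoside with the 75th percentile. Members past 1.5-fold (12 and 9) numbered 7 and 14 against the other vehicle array, and 14 for helveticoside with the 75th percentile. Members past 2-fold (5 and 3) numbered 3 and 6 against the other vehicle array, 3 for EEDS with the 75th percentile and 5 for helveticoside against the mean of both. No share of all genes past the same fold stands beside these alternative fold counts, so they cannot be read as more or fewer than the background. Helveticoside trend calls (3) numbered 5 with normexp, beside 13.9% of all genes, and 5 with the scanned signal, beside 13.5%. They numbered 6 with the authors' values, beside 9.1% of the genes fitted. When fitted to genes well above background on all arrays, they numbered 8, beside 24.1% of those genes. Calls on the mean slope (17) numbered 6 with dose entered linearly. With the 4 arrays of a series alone, 0 members and 0 of all 19043 genes were called for either agent, with fewer samples and less residual freedom. Leaving out 1 array gave 0 to 7 EEDS calls, 0 to 3 helveticoside calls and 1 to 14 calls on the mean slope, and no slope difference was called for a member under any alternative run. No mean slope of the 17 called members changed sign under any alternative. The causes of these changes were not tested. Levels near the background, which differed between the series, limit dim genes. The members were all well above background, yet their assembly factor medians and helveticoside calls moved with normexp and the scanned signal.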
